A study of Mus musculus with 11 samples.

Results

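The genes described here make and regulate MHC class II, the surface molecule that shows peptides to CD4 T cells. They are 8 genes picked by symbol from the deposited gene table, out of 20963 genes that could be tested: H2-Aa, H2-Ab1, H2-Eb1, H2-DMa, H2-Oa, H2-Ob, Cd74 and Ciita. Together they have 16 of the 38557 probe sets used, all of them assigned to a single gene by the deposited gene table. That assignment does not show whether their probes also match related transcripts. No filter on low values was applied, so all 8 were tested. Their RNA was measured on 11 oligonucleotide arrays of CD4 T cells sorted from the spleens of female C57BL/6 mice. WM IMP (3 arrays) are innate memory phenotype cells, gated as CD45.1+TCRβ+CD4+ with high CD44 and low CD62L, from chimeras 8 weeks after CD45.1+ WT marrow was given to lethally irradiated CD45.2+ MHCII-/- mice. WT IMP (2 arrays) are cells of the same CD44 and CD62L gate from unmanipulated WT mice 8 weeks old. MW naive (3 arrays) are CD45.2+TCRβ+CD4+ cells with low CD44 and high CD62L from chimeras 8 weeks after the reverse transfer, CD45.2+ MHCII-/- marrow into lethally irradiated WT mice. WT naive (3 arrays) are cells of that low CD44, high CD62L gate from WT mice 8 weeks old. By the labels, WM IMP cells were selected on class II of blood-forming cells, and MW naive cells on that of the thymus alone. The labels disagree on whether the WT hosts of MW carried CD45.1 or CD45.2, so that by 1 of them the gate would not separate host from donor cells. They do not name the MHCII-/- allele, nor say whether an array came from 1 mouse or a pool, and they give the sort purity as 92% to 99%.

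MHC class II is a pair of chains that is loaded with peptides in endosomes. In the mouse H2-Aa and H2-Ab1 encode the α and β chain of I-A, and H2-Eb1 encodes the β chain of I-E, which C57BL/6 mice do not place on the surface because their H2-Ea allele is inactive. The invariant chain, encoded by Cd74, escorts new class II to the endosome. There H2-DM, made of the H2-DMa and H2-DMb chains, exchanges the leftover invariant chain piece for peptides, and H2-DO, made of the H2-Oa and H2-Ob chains, restrains H2-DM. Ciita encodes the coactivator that switches these genes on. B cells, dendritic cells and macrophages are the usual sources of class II, and mouse T cells, unlike activated human T cells, are generally held to make little of it.

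Ciita does not bind DNA itself but docks on factors that sit on the X and Y boxes of class II promoters. The promoters of 4 members are shown because they carry the letters of both boxes in the same order, whereas the RNA of their genes differed in behaviour. Each line gives the 120 bases before the gene start, from RefSeq on the GRCm38.p6 build, on the gene's own strand, and the capitals mark GCAAC, part of the X box, and GATTGG, the Y box. H2-Aa lies at chr17:34287824-34287943 (minus strand), H2-Eb1 at chr17:34305747-34305866 (plus strand), H2-Oa at chr17:34092259-34092378 (plus strand) and H2-Ob at chr17:34238785-34238904 (plus strand).
H2-Aa: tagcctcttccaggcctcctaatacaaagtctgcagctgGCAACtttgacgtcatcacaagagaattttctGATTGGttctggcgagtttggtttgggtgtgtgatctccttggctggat
H2-Eb1: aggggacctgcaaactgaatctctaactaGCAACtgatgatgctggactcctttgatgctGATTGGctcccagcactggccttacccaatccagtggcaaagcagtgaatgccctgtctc
H2-Oa: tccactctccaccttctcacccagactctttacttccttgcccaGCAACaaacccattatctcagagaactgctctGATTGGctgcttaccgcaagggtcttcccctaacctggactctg
H2-Ob: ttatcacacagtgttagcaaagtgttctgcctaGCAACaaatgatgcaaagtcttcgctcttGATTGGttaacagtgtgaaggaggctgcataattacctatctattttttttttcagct
In these promoters GCAAC starts 32 bases (H2-Aa), 31 bases (H2-Eb1), 32 bases (H2-Oa) and 29 bases (H2-Ob) before GATTGG starts. GCAAC followed on the same strand by GATTGG, with starts 15 to 45 bases apart, was found on either strand in 165 of 32851 promoters of 300 bases (0.502%). That spacing was set after these promoters had been read. GATTGG by itself was in 16.1% and GCAAC by itself in 35.2% of all promoters. Of the 5 members whose promoter was in the table, H2-DMa was without the pair at both of its listed starts. A match describes letters and is not evidence of a bound site.

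All values below are on a log2 scale whose zero, for each probe set, is the average of the WT naive arrays, so they compare arrays and give no level of one gene against another. Precision is limited by the number of arrays. The gate was visible in the RNA: Cd44 was higher in the IMP cells (1.85 ± 0.16 in WM IMP against MW naive, 2.01 ± 0.17 in WT IMP against WT naive, log2 difference ± SE from limma). Of 12 T cell markers, limma called 0 in WT IMP against WT naive (3 at an unadjusted p under 0.05, and 2 called without WT IMP 2 or 1 without WM IMP 1), 1 (Lat, lower) in WM IMP against MW naive, and 2 (Cd2 and Cd5, lower) in MW naive against WT naive. That last count was 0 without any 1 of WT naive 1, 2 and 3 and MW naive 1 and 2, and 1 without WT IMP 1 or 2. Between the naive groups 7 of the 12 had an unadjusted p under 0.05 (limma). There 7 were lower and 0 higher without overlap, where 12.7% of all genes were lower, and the median was -0.31 against 0.05 over all genes. Of all genes, 2.33% were called lower in WT IMP against WT naive, 6.62% in WM IMP against MW naive and 2.01% in MW naive against WT naive. Cd4 was not called (-1.0 in WT IMP against WT naive, adjusted p = 0.162, and 0.37 in WM IMP against MW naive, adjusted p = 0.543). Poly-A control probe sets were high in 4 arrays, 1 of each group. The 5′ minus 3′ difference of the Gapdh control probe sets, a measure of how far labelling reached along the RNA, was between -4.22 and -1.38 in MW naive and between -0.424 and 0.406 in WT naive. It was between -2.71 and 0.558 in WM IMP, and -4.23 and -0.269 in the WT IMP arrays.

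The chain genes of class II served first as a check of the MHCII-/- label, since by the labels the marrow behind MW naive cells was MHCII-/- and that behind the other groups was not. H2-Aa was at -4.00, -2.74 and -2.50 in the MW naive arrays, against 0.76, -0.32 and -0.43 in the WT naive arrays. H2-Ab1 was at -3.40, -3.36 and -2.45 in MW naive, against 0.58, -0.23 and -0.35 in WT naive. H2-Eb1 was at -4.16, -3.05 and -2.64 in MW naive, against 0.72, -0.23 and -0.49 in WT naive. All 3 genes were thus lower in every MW naive array than in any WT naive array. The replicates of a naive group spread over 0.93 to 1.52.

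**Figure D1:**
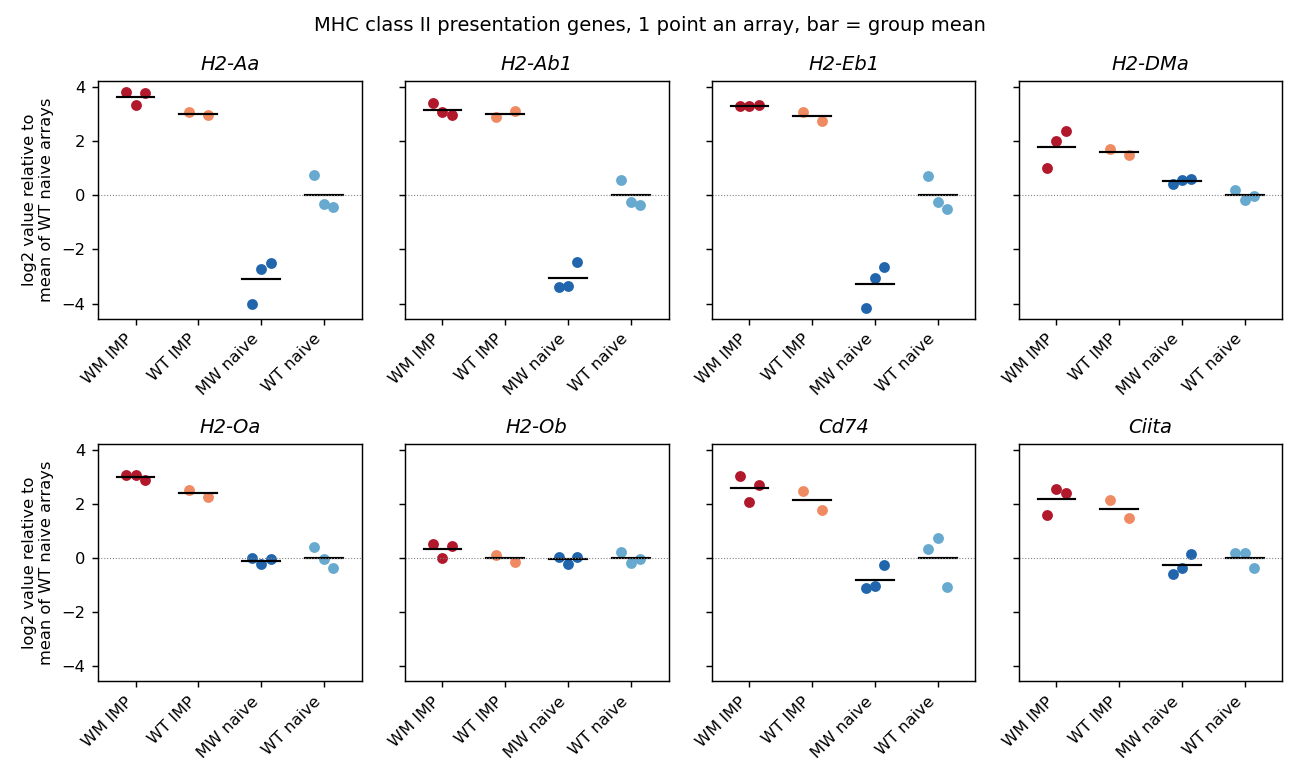
Log2 values of the 8 genes, with the WT naive average as 0 (vertical axis), in each group (horizontal axis), with 1 point per array and a bar at the group mean. H2-Aa, H2-Ab1 and H2-Eb1 are high in both IMP groups and lowest in MW naive, H2-DMa, H2-Oa, Cd74 and Ciita are high in the IMP groups only, and H2-Ob stays between -0.23 and 0.52.

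The fit asked which genes differ between naive cells of MHCII-/- marrow and naive cells of unmanipulated mice. These groups differ in marrow genotype, in irradiation and transfer, in the CD45 gate and by the labels in the class II of selection. These cannot be told apart in their comparison. H2-Aa was 8.46-fold lower in MW naive (log2 difference -3.08 ± 0.38 SE, limma with Benjamini-Hochberg adjustment over all genes, adjusted p = 0.00344). H2-Ab1 was 8.39-fold lower (-3.07 ± 0.29, adjusted p = 0.00139), and H2-Eb1 was 9.73-fold lower (-3.28 ± 0.37, adjusted p = 0.00286). Among all 20963 genes H2-Eb1 had the most negative difference, H2-Aa the next and H2-Ab1 the third. In bulk RNA, fewer cells of a type and less RNA per cell cannot be told apart. In all, 3 of the 8 members fell and 0 rose, where 2.01% of all genes fell and 0.692% rose. The median over the 8 members was -0.54, against 0.05 over all genes. Arrays of the 2 groups did not overlap for 3 members that were lower and for 1, H2-DMa, that was higher, where 12.7% of all genes were lower without overlap and 13.9% higher. With the Gapdh difference as a covariate H2-Ab1 was still called, while H2-Aa (-2.69, adjusted p = 0.078) and H2-Eb1 (-3.08, adjusted p = 0.063) were not. With that covariate 14 of all genes were called, against 567 without it. The Gapdh difference did not overlap between the naive groups, so covariate and group cannot be fully told apart there. In the 7 arrays with low poly-A controls, where each naive group had 2 arrays, H2-Ab1 was called and H2-Aa (-2.99) and H2-Eb1 (-3.24) both had an adjusted p of 0.0519.

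On chromosome 17 the lowered genes stood side by side. H2-Ab1, H2-Aa and H2-Eb1 are neighbours there in the GRCm38.p6 gene order, and 15 tested genes on either side of H2-Ab1 were listed to see how far the difference reached, a window chosen after the data were seen. Of these 31 genes, 4 were called in MW naive against WT naive, where 0.692% of all genes rose and 2.01% fell. They were the 3 chain genes and Ager, the gene of the receptor for advanced glycation end products, which was higher (1.40 ± 0.17, adjusted p = 0.0034). The measured gene next to H2-Ab1, H2-Ob, was at -0.05 ± 0.17, and the one next to H2-Eb1, H2-Eb2, was at -0.09 ± 0.33, neither called. The other 28 genes of the window lay between -1.27 and 1.40. In WT IMP against WT naive, 8 genes of the same window were higher and 1, Pbx2, was lower, where 5.31% of all genes rose and 2.33% fell. The higher ones were Prrt1 and the class II genes H2-Oa, H2-DMa, H2-DMb2, H2-Ab1, H2-Aa, H2-Eb1 and H2-Eb2. The genes of class I peptide supply that lie between them (Psmb8, Psmb9, Tap1 and Tap2) were between -0.29 and 0.41 and not called.

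**Figure D2:**
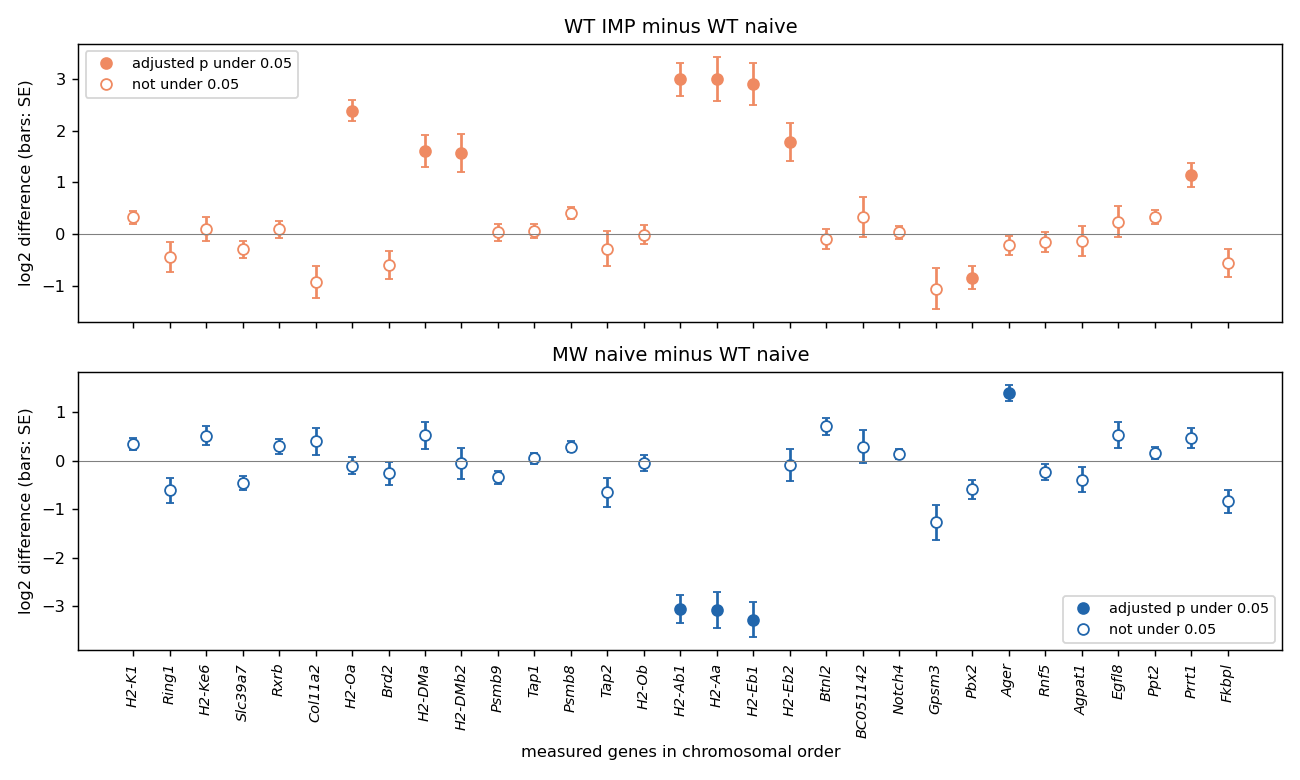
Log2 difference (vertical axis, bars are the SE) of 31 measured genes in their order on chromosome 17 (horizontal axis), for WT IMP minus WT naive (upper) and MW naive minus WT naive (lower). Filled points have an adjusted p under 0.05. In the lower panel H2-Ab1, H2-Aa and H2-Eb1 lie near -3 and the genes beside them near 0, and in the upper panel the class II genes except H2-Ob stand above the rest.

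In the IMP cells the same 3 chain genes were high in every array. H2-Aa was at 3.82, 3.33 and 3.78 in WM IMP and at 3.07 and 2.95 in WT IMP. H2-Ab1 was at 3.39, 3.08 and 2.97 in WM IMP and at 2.89 and 3.10 in WT IMP. H2-Eb1 was at 3.28, 3.28 and 3.35 in WM IMP and at 3.08 and 2.75 in WT IMP. No IMP array came near a naive array, and the IMP replicates lay within 0.07 to 0.49 of each other, closer than the naive ones.

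The comparison of WT IMP with WT naive asked what sets memory phenotype cells apart in unmanipulated mice. H2-Aa was 8.07-fold higher in WT IMP (3.01 ± 0.43, adjusted p = 0.00103), H2-Ab1 7.99-fold (3.0 ± 0.32, adjusted p = 0.000128) and H2-Eb1 7.53-fold (2.91 ± 0.41, adjusted p = 0.000972). Of the 8 members 7 rose and 0 fell, where 5.31% of all genes rose and 2.33% fell. The same 7 members did not overlap between the groups, where 19.6% of all genes were higher without overlap. The median of the members was 2.26, against -0.01 over all genes. By size the chain genes ranked 118 (H2-Aa), 120 (H2-Ab1) and 130 (H2-Eb1) of 20963 genes. Without WT IMP 1 the calls of H2-DMa, Ciita and Cd74 were lost, leaving 4 members, and without WT IMP 2 that of Cd74, leaving 6, with the values given below for each gene.

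WM IMP and MW naive differ both in cell type and in the genotype of marrow and host, so that these cannot be told apart in their comparison. The log2 difference was 6.72 ± 0.38 for H2-Aa (106-fold, adjusted p = 6.7e-07), 6.59 ± 0.37 for H2-Eb1 (96.2-fold, adjusted p = 5.95e-07) and 6.22 ± 0.29 for H2-Ab1 (74.4-fold, adjusted p = 1.74e-07), all higher in WM IMP. They ranked 2, 4 and 7 of 20963 genes. Of the 8 members 7 rose and 0 fell, where 6.51% of all genes rose and 6.62% fell, and the same 7 did not overlap, where 11.7% of all genes were higher without overlap. The median of the members was 3.25, against -0.02 over all genes. The count was 7 whichever array was left out.

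The test of whether the 2 differences of IMP from naive were unequal (chimeras minus unmanipulated mice) called 0.0572% of all genes, 12 in number, and 1 of the 8 members, H2-Ab1 (3.22 ± 0.43, adjusted p = 0.0262). H2-Aa (3.71 ± 0.58, adjusted p = 0.0642) and H2-Eb1 (3.68 ± 0.55, adjusted p = 0.0555) had larger estimates and did not pass. Each estimate equals the WM IMP minus WT IMP difference less the MW naive minus WT naive difference, so it is not separate from those comparisons. For the other 5 members the estimates were between -0.34 (H2-DMa) and 1.27 (Cd74). H2-Ab1 was not called without WT naive 2 (adjusted p = 0.0621), MW naive 1 (adjusted p = 0.0651), MW naive 2 (adjusted p = 0.0759), WT IMP 1 (adjusted p = 0.172), WT IMP 2 (adjusted p = 0.13) or WM IMP 3 (adjusted p = 0.058). All 3 were called without MW naive 3 and without WM IMP 2, fits that called 16 and 64 of all genes. H2-Eb1 was called in place of H2-Ab1 without MW naive 1.

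Between the IMP groups, WM IMP against WT IMP, 0 of the 8 members were called, where limma called 1.21% of all genes. H2-Oa was 0.61 ± 0.20 higher (95% interval 0.16 to 1.06, unadjusted p = 0.0122, adjusted p = 0.161). H2-Aa was at 0.63 ± 0.43 (interval -0.32 to 1.57), H2-Eb1 at 0.39 ± 0.41 (-0.51 to 1.30) and H2-Ab1 at 0.15 ± 0.32 (-0.55 to 0.85). H2-Aa, H2-Eb1 and H2-Oa were higher in every WM IMP array than in either WT IMP array, where 15.9% of all genes were. At an unadjusted p under 0.05, H2-Oa was the 1 member to pass. All 8 estimates were positive, from 0.15 to 0.63, with a median of 0.38 against 0.02 over all genes.

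**Figure D3:**
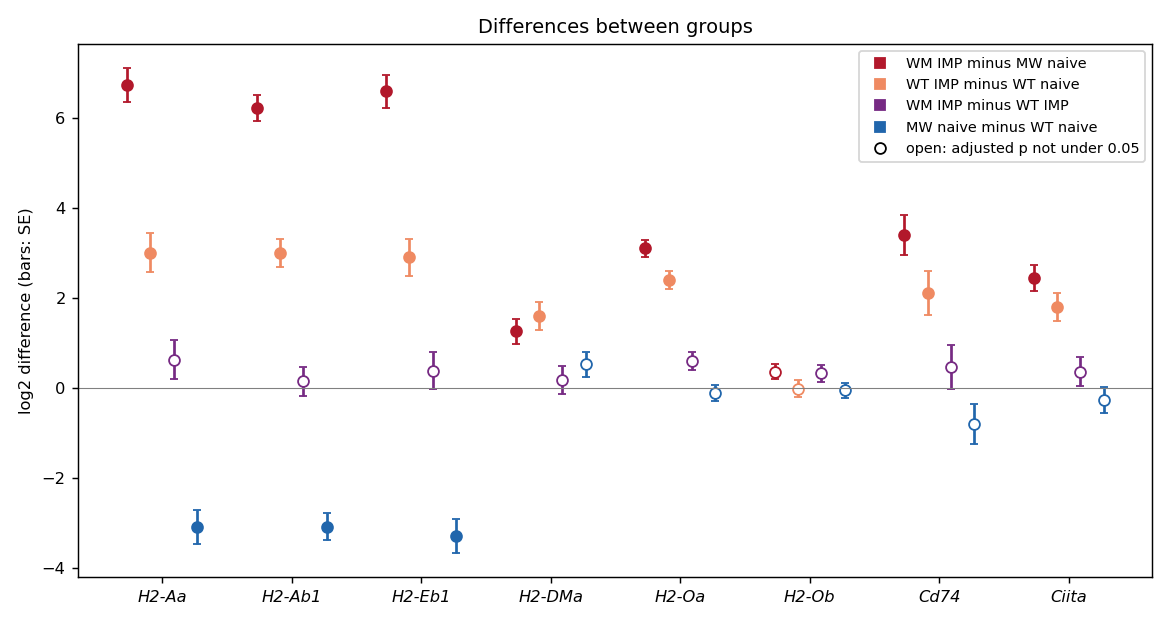
Log2 differences of the 8 genes (vertical axis, bars are the SE from limma) for 4 comparisons in colour, with open points where the adjusted p was not under 0.05. H2-Aa, H2-Ab1 and H2-Eb1 reach 6.22 to 6.72 in WM IMP minus MW naive, about -3 in MW naive minus WT naive and at most 0.63 in WM IMP minus WT IMP.

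The probe sets of the chain genes agreed in direction and differed in size. H2-Aa has 4 probe sets, whose mean values in MW naive were -4.22 (1435290_x_at), -3.20 (1452431_s_at), -3.18 (1438858_x_at) and -1.73 (1443783_x_at). The last of these was also the highest in the IMP groups, at 5.02 in WM IMP and 3.87 in WT IMP, where the other 3 were between 2.75 and 3.78 in WM IMP and between 2.47 and 3.08 in WT IMP. The lowest single value of the gene, -6.56, was that of 1435290_x_at in MW naive 1, where the other 3 probe sets were between -4.37 and -1.82. H2-Ab1 has 3 probe sets with means of -3.61, -3.52 and -2.07 in MW naive and 3.09, 3.64 and 2.71 in WM IMP. H2-Eb1 has a single one. With each probe set tested by itself, 1435290_x_at of H2-Aa was not called in WT IMP against WT naive (2.47, adjusted p = 0.133).

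The peptide exchange genes followed the IMP gate and were not called between the naive groups. H2-DMa, the α chain of the exchange factor, was at 0.99, 1.99 and 2.39 in WM IMP and at 1.72 and 1.49 in WT IMP. It was at 0.41, 0.58 and 0.59 in MW naive and at 0.18, -0.16 and -0.02 in WT naive. By the average of its 2 probe sets WM IMP 1 was thus the lowest IMP array, and the naive arrays all lay below it. On 1459872_x_at WM IMP 1 was at 0.55, below MW naive 2 (0.58) and MW naive 3 (0.75). In limma by itself, 1459872_x_at was not called in WT IMP against WT naive (1.57, adjusted p = 0.0863). The same held in WM IMP against MW naive (1.19, adjusted p = 0.107). The other probe set, 1422527_at, was called in both (1.64, adjusted p = 0.000487, and 1.34, adjusted p = 0.000591). H2-DMa was 3.04-fold higher in WT IMP than in WT naive (1.61 ± 0.31, adjusted p = 0.00847) and 2.40-fold higher in WM IMP than in MW naive (1.26 ± 0.28, adjusted p = 0.0117). The first call was lost without WT IMP 1 (1.49, adjusted p = 0.103) and the second in a fit of these 2 groups alone (adjusted p = 0.061). With the Gapdh difference as a covariate the first was 1.34 (adjusted p = 0.0501), and in the 7 arrays with low poly-A controls neither was called (adjusted p = 0.276 and 0.167). In MW naive against WT naive H2-DMa was at 0.53 ± 0.28 (interval -0.09 to 1.14), without a call, and in WM IMP against WT IMP at 0.18 ± 0.31 (-0.50 to 0.87).

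The partner chain of H2-DMa could be followed less well. H2-DMb1 had no probe set of its own, and 2 probe sets were shared by H2-DMb1 and H2-DMb2. On these, 1418638_at averaged 3.41 in WM IMP, 2.97 in WT IMP, 0.19 in MW naive and 0 in WT naive, and 1449580_s_at averaged 2.47, 2.29, -0.47 and 0 in the same groups. H2-DMb2, averaged over its own 3 probe sets, was at 2.88, 1.89 and 2.33 in WM IMP, 1.74 and 1.41 in WT IMP, -0.17, 0.00 and 0.03 in MW naive, and 0.80, -0.37 and -0.43 in WT naive. The probe sets differed, and 1419744_at was at 1.77, -0.23 and -0.23 in WM IMP. In limma by itself it was not called in WM IMP against MW naive (1.01, adjusted p = 0.222). Nor was it in WT IMP against WT naive (0.33, adjusted p = 0.941). For 1443686_at and 1443687_x_at these differences were 3.11 and 3.125 in the chimeras and 2.11 and 2.27 in WT mice, all called. As an average H2-DMb2 was higher in WM IMP than in MW naive (2.41 ± 0.32, adjusted p = 0.000385) and in WT IMP than in WT naive (1.57 ± 0.36, adjusted p = 0.0193). The WT call was lost without WT IMP 1 (adjusted p = 0.201), WT IMP 2 (adjusted p = 0.0693), WT naive 2 (adjusted p = 0.0769) or WT naive 3 (adjusted p = 0.079).

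The 2 chains of H2-DO behaved differently from each other. H2-Oa, the α chain, was at 3.08, 3.05 and 2.88 in WM IMP, 2.52 and 2.26 in WT IMP, -0.01, -0.24 and -0.05 in MW naive, and 0.41, -0.03 and -0.38 in WT naive. Its replicates lay closer together than those of the I-A chains in the naive groups, and the IMP arrays stood clear of all naive arrays. It was 8.58-fold higher in WM IMP than in MW naive (3.10 ± 0.18, adjusted p = 8.09e-07) and 5.25-fold higher in WT IMP than in WT naive (2.39 ± 0.20, adjusted p = 2.8e-05). Between MW naive and WT naive it was at -0.10 ± 0.18 (interval -0.50 to 0.30).

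H2-Ob, the β chain, was called in none of the comparisons. It was at 0.52, 0.00 and 0.43 in WM IMP, 0.11 and -0.13 in WT IMP, 0.04, -0.23 and 0.04 in MW naive, and 0.21, -0.20 and -0.02 in WT naive, so that all groups overlapped. The differences were 0.37 ± 0.17 in WM IMP against MW naive (interval -0.00 to 0.73, unadjusted p = 0.0517, adjusted p = 0.196) and -0.01 ± 0.19 in WT IMP against WT naive (interval -0.42 to 0.40, adjusted p = 0.997). They were 0.33 ± 0.19 in WM IMP against WT IMP (-0.08 to 0.74) and -0.05 ± 0.17 in MW naive against WT naive (-0.42 to 0.32). Its 2 probe sets differed. 1422201_at stayed between -0.19 and 0.14 over all 11 arrays, and 1440837_at was at 1.03, 0.20 and 0.90 in WM IMP and between -0.47 and 0.41 in the other arrays. The deposited values do not show whether either probe set was above background.

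Cd74, the invariant chain gene, was at 3.03, 2.08 and 2.68 in WM IMP and at 2.49 and 1.76 in WT IMP. It was at -1.10, -1.04 and -0.26 in MW naive and at 0.33, 0.75 and -1.08 in WT naive. The naive arrays thus spread widely and overlapped, and all IMP arrays lay above them. Cd74 was 10.5-fold higher in WM IMP than in MW naive (3.40 ± 0.44, adjusted p = 0.00032) and 4.35-fold higher in WT IMP than in WT naive (2.12 ± 0.49, adjusted p = 0.0209). The second call was lost without WT IMP 1 (1.76, adjusted p = 0.247) or WT IMP 2 (2.49, adjusted p = 0.052) and with the Gapdh covariate (2.20, adjusted p = 0.0624), in the 7 arrays with low poly-A controls (1.92, adjusted p = 0.307), in a fit of these 2 groups alone (adjusted p = 0.0531) and with the replicate block (2.05, adjusted p = 0.0572). In MW naive against WT naive it was at -0.80 ± 0.44 (interval -1.76 to 0.16, adjusted p = 0.408), and in WM IMP against WT IMP at 0.47 ± 0.49 (-0.60 to 1.55).

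Ciita, the coactivator, was at 1.59, 2.54 and 2.40 in WM IMP and at 2.14 and 1.47 in WT IMP. It was at -0.59, -0.37 and 0.15 in MW naive and at 0.18, 0.19 and -0.37 in WT naive, and here too the naive groups overlapped below all IMP arrays. Ciita was 5.45-fold higher in WM IMP than in MW naive (2.45 ± 0.29, adjusted p = 0.000176) and 3.49-fold higher in WT IMP than in WT naive (1.80 ± 0.32, adjusted p = 0.00499). The WT call was lost without WT IMP 1 (1.47, adjusted p = 0.0925) and in the 7 arrays with low poly-A controls (1.56, adjusted p = 0.135). In MW naive against WT naive it was at -0.27 ± 0.29 (interval -0.91 to 0.37), and in WM IMP against WT IMP at 0.37 ± 0.32 (-0.34 to 1.08). The probe sets 1421211_a_at and 1421210_at averaged 2.91 and 1.44 in WM IMP, 2.38 and 1.23 in WT IMP, and -0.20 and -0.34 in MW naive. The files do not place them on the transcripts of Ciita, which has several promoters.

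For 7 of the 8 members the groups thus fell in 1 order of means, WM IMP, WT IMP and then the naive groups, and neighbours in it did not all differ. WM IMP and WT IMP were not called apart for any member, and MW naive and WT naive were called apart for H2-Aa, H2-Ab1 and H2-Eb1. Within groups, deviations from the group means correlated at r = 0.96 between H2-Aa and H2-Eb1, 0.76 between H2-Ab1 and H2-Eb1 and 0.75 between H2-Aa and H2-Ab1 over 11 arrays. Those of Ciita correlated at 0.69 with H2-DMa, and those of H2-DMa at -0.11 with H2-Ab1 and at -0.16 with Cd74. All genes share the arrays, and these values describe them only. Over the log2 values themselves, in which the groups set the correlation, the chain genes were most like each other (r of 0.99 or higher), and outside the 8 members the gene most like each was Pid1, with r = 0.985 (H2-Aa), 0.984 (H2-Ab1) and 0.982 (H2-Eb1). Cd83, a surface protein of mature dendritic cells, was among the 5 most alike genes outside the members for each of the 3. The most alike genes outside the members were Ly86 for H2-Oa (0.993), S100a11 for Ciita (0.985), Tctex1d2 for H2-DMa (0.981), Syk for Cd74 (0.976) and Scd1 for H2-Ob (0.947).

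Other genes of the class II pathway were taken from lists chosen with earlier results of these data known. The list counts below stand against these shares of all genes called. In WM IMP against MW naive 6.51% rose and 6.62% fell, and in WT IMP against WT naive 5.31% rose and 2.33% fell. In MW naive against WT naive 0.692% rose and 2.01% fell, and 1.21% were called between the IMP groups. H2-Eb2, a further β chain gene next to H2-Eb1, was at 2.15, 1.88 and 3.02 in WM IMP, 1.86 and 1.72 in WT IMP, -0.62, 0.56 and -0.21 in MW naive, and 0.39, -0.26 and -0.13 in WT naive. It was higher in WM IMP than in MW naive (2.44 ± 0.33, adjusted p = 0.000469) and in WT IMP than in WT naive (1.79 ± 0.37, adjusted p = 0.0119). The WT call was lost without WT IMP 1 (adjusted p = 0.117) or WT IMP 2 (adjusted p = 0.0644). H2-Ea had no probe set of its own.

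Of 15 genes of class II transcription, 5 rose and 1 fell in WM IMP against MW naive, and 6 rose and 0 fell in WT IMP against WT naive. The medians were 0.02 and 0.19, against -0.02 and -0.01 over all genes. The WT count was 1 without WT IMP 1, 2 without WT IMP 2 or WT naive 2, and 3 without WT naive 1 or WT naive 3. Between MW naive and WT naive 0 were called (5 at an unadjusted p under 0.05, limma). Of the genes that rose in both comparisons, Irf4, Irf8, Spi1 and Spib are lineage factors. Spi1, which encodes PU.1, a factor of myeloid cells and B cells, was 3.19 ± 0.23 higher in WM IMP than in MW naive (adjusted p = 3.89e-06) and 1.55 ± 0.26 higher in WT IMP than in WT naive (adjusted p = 0.00322), which without WT IMP 1 was 1.37 (adjusted p = 0.0583). Irf8, a factor of dendritic cells and B cells, was 2.43 ± 0.22 and 3.65 ± 0.24 higher in the same comparisons. Of the factors on the X and Y boxes, Rfx5 was 1.26 ± 0.13 higher in WM IMP than in MW naive (adjusted p = 7.8e-05), Rfxap was lower there (-0.74, adjusted p = 0.0376), a call kept in 1 of 11 leave-one-out fits (without WM IMP 2), and Nfya, Nfyb, Nfyc, Creb1 and Rfxank were not called. Rfx5 was 0.66 ± 0.15 higher in WT IMP than in WT naive (adjusted p = 0.0198), a call that was lost without any 1 of the 5 arrays compared (adjusted p up to 0.202). Spi1 and Irf8 were also called between the IMP groups, Spi1 higher (1.32 ± 0.26, adjusted p = 0.0418) and Irf8 lower (-1.41 ± 0.24, adjusted p = 0.0271) in WM IMP. Both calls depended on single arrays. Irf8 lost it without WT IMP 1 (adjusted p = 0.0744), WT IMP 2 (adjusted p = 0.34) or WM IMP 3 (adjusted p = 0.0536), and Spi1 without any 1 array other than WT naive 2, WT naive 3 and WM IMP 2 (adjusted p up to 0.42).

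Of 12 genes of endosomal peptide processing, 7 rose and 0 fell in WM IMP against MW naive (median 0.87) and 8 rose and 0 fell in WT IMP against WT naive (median 0.99), a count that was 5 without WT IMP 2. Ctsh, the gene of cathepsin H, was at 3.63, 3.80 and 4.03 in WM IMP, 4.08 and 3.77 in WT IMP, -0.83, -0.89 and -0.79 in MW naive, and 0.55, -0.23 and -0.32 in WT naive. It was 4.66 ± 0.21 higher in WM IMP than in MW naive (adjusted p = 1.55e-07) and 3.93 ± 0.24 higher in WT IMP than in WT naive (adjusted p = 3.26e-06). Ifi30, which encodes a thiol reductase of endosomes, was 2.52 ± 0.18 and 1.56 ± 0.20 higher in the same comparisons. Between MW naive and WT naive 3 of the 12 were called, all lower in MW naive. The greatest was Lgmn, the gene of legumain, at -2.00 ± 0.39 (adjusted p = 0.0257), and 0 of the 12 were called without any 1 of WT naive 1, 2 and 3 and MW naive 1 and 2. Between WM IMP and WT IMP limma called 0 of the 12 (4 at an unadjusted p under 0.05), and 2 without WM IMP 2.

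Of 5 genes of class II turnover and costimulation, all 5 rose in WM IMP against MW naive and 3 rose in WT IMP against WT naive. Cd83 was 4.36 ± 0.25 higher in WM IMP than in MW naive (adjusted p = 6.15e-07) and 3.12 ± 0.27 higher in WT IMP than in WT naive (adjusted p = 3.56e-05). Marchf1, which encodes a ubiquitin ligase that removes class II from the surface, was 1.55 ± 0.16 and 1.12 ± 0.17 higher. The costimulatory ligand Cd86 was 2.39 ± 0.25 higher in WM IMP than in MW naive, and Cd40 was 2.16 ± 0.23 and Cd80 1.0 ± 0.16 higher. In MW naive against WT naive 2 of the 5 fell, Cd83 (-1.27 ± 0.25, adjusted p = 0.0251) and Cd86 (-1.50 ± 0.25, adjusted p = 0.0153). That count was 0 without WT naive 1, WT naive 3 or MW naive 2, and 1 without WT naive 2 or MW naive 1. Of 16 genes of class I presentation, 1 (Calr, which encodes the chaperone calreticulin, 0.94 ± 0.19, adjusted p = 0.00578) rose in WM IMP against MW naive, and limma called 0 in WT IMP against WT naive (4 at an unadjusted p under 0.05, and 1 called without WM IMP 1). Calr (-1.59 ± 0.19, adjusted p = 0.00313) and Pdia3, another chaperone gene (-1.73 ± 0.27, adjusted p = 0.00889), were lower in MW naive than in WT naive. The class I chain genes H2-K1 and H2-D1 and B2m lay between -0.29 and 0.42 in all 11 arrays.

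Markers of the cells that usually make class II moved with the same gate. Of 9 conventional dendritic cell markers tested, 4 rose in WM IMP against MW naive and 5 in WT IMP against WT naive, with 0 lower in either. Itgax, which encodes CD11c, was 4.71 ± 0.23 and 4.31 ± 0.25 higher, and Flt3, a growth factor receptor of dendritic cell precursors, 3.58 ± 0.21 and 3.92 ± 0.24. The list averaged 1.26 to 2.16 over the WM IMP arrays, 2.09 to 2.15 in WT IMP, -0.08 to 0.14 in MW naive and -0.21 to 0.17 in WT naive. Xcr1, a defining marker of one dendritic cell subset, stayed between -0.15 and 0.18 in all 11 arrays. Of 9 plasmacytoid dendritic cell markers tested, 7 rose in WM IMP against MW naive and 8 in WT IMP against WT naive. Siglech, the receptor that defines these cells, was at 2.07, 4.99 and 3.14 in WM IMP, 5.43 and 5.53 in WT IMP, -0.06, -0.37 and -0.21 in MW naive, and 0.52, -0.35 and -0.17 in WT naive. The list averaged 1.04 to 2.27 in WM IMP and 2.64 to 2.70 in WT IMP, and -0.24 to 0.16 over the naive arrays.

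Of 15 monocyte and macrophage markers, 6 rose in WM IMP against MW naive and 7 in WT IMP against WT naive, among them Mpeg1 (4.49 ± 0.42 and 4.92 ± 0.47) and Cd68 (3.85 ± 0.31 and 3.81 ± 0.34). The list averaged 0.66 to 1.04 in WM IMP, 1.32 to 1.41 in WT IMP, -0.82 to -0.47 in MW naive and -0.12 to 0.21 in WT naive. Lyz2, the lysozyme gene, was lower in MW naive than in WT naive (-1.92 ± 0.23, adjusted p = 0.0034). Of 15 B cell markers, 9 rose in WM IMP against MW naive and 3 in WT IMP against WT naive (1 without WT IMP 1). Limma called 0 of them in MW naive against WT naive (3 at an unadjusted p under 0.05) and 0 in WM IMP against WT IMP (6 at an unadjusted p under 0.05). WM IMP 1 stood apart, with a B cell list mean of 2.12 against 0.86 and 0.85 in the other WM IMP arrays, 0.66 and 0.10 in WT IMP, -0.62 to -0.09 in MW naive and -0.39 to 0.45 in WT naive. The mean of H2-Aa, H2-Ab1 and H2-Eb1 in the same WM IMP arrays was 3.50, 3.23 and 3.37. Without WM IMP 1 the 7 members remained called in WM IMP against MW naive. In the naive groups, WT naive 1 was the highest WT naive array for the 3 chain genes (mean 0.69 against -0.26 and -0.43) and for the B cell list (0.45 against -0.06 and -0.39), and also for the conventional dendritic cell (0.17), plasmacytoid dendritic cell (0.16) and monocyte and macrophage (0.21) lists. Over the MW naive arrays the chain genes were at -3.85, -3.05 and -2.53 where the B cell list was at -0.62, -0.41 and -0.09. There the conventional dendritic cell list was at 0.01, -0.08 and 0.14, and the plasmacytoid dendritic cell list at -0.23, -0.24 and -0.18. The monocyte and macrophage list was at -0.65, -0.82 and -0.47. The part of these cell types in the class II differences was not tested, and the arrays do not tell which of the sorted cells held the RNA.

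**Figure D4:**
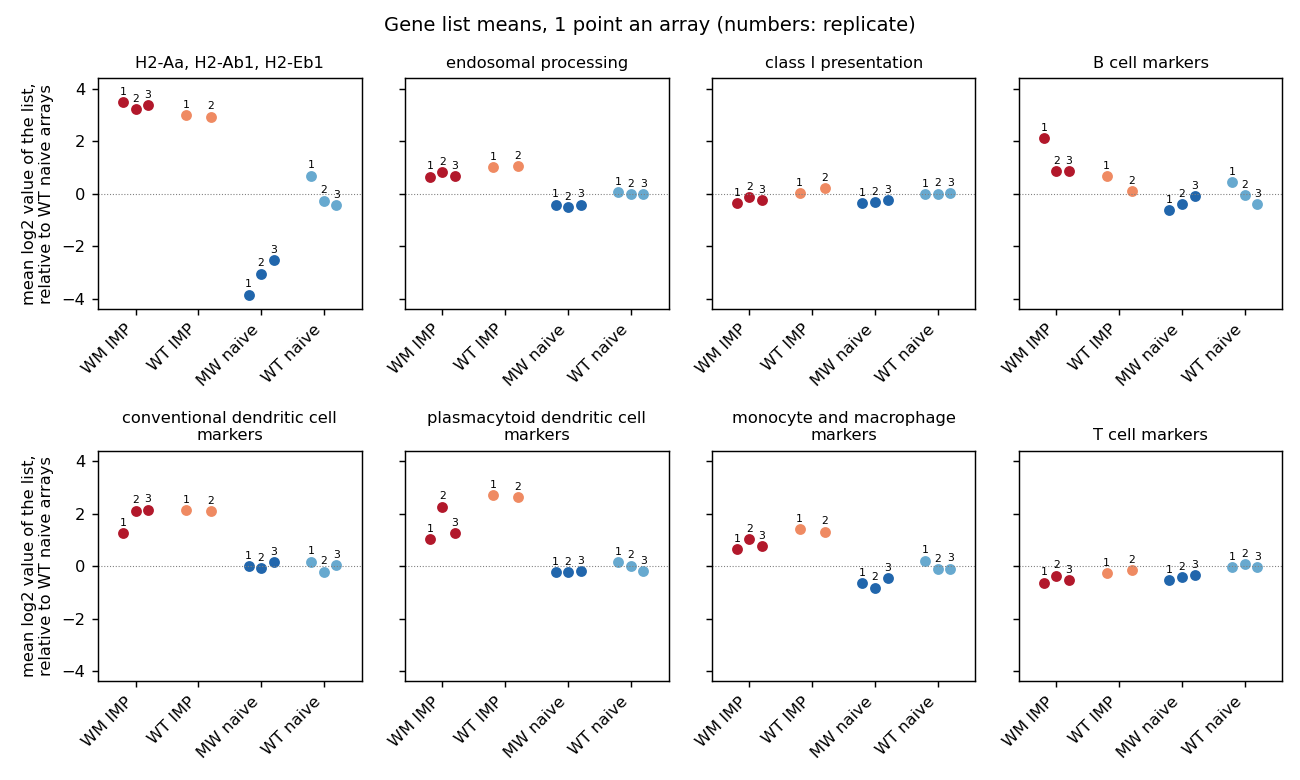
Mean log2 value over the genes of a list, with the WT naive average as 0 (vertical axis), in each group (horizontal axis), with 1 point per array and its replicate number. The 3 chain genes and the dendritic cell lists are high in both IMP groups, the B cell list is highest in WM IMP 1, and the class I and T cell lists stay between -0.63 and 0.21.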

How the data were processed

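The authors deposited log2 values of 45101 probe sets for 11 arrays, made by RMA per the submitters' processing notes, from which the WT naive average of each probe set had been subtracted (tested on the files), and a table of 27800 genes with probe sets and Entrez numbers. The log base is not given in the sources used here and was taken as 2. Brightness, and so the distance from background, is unknown. Labelling used 30 ng of RNA. Probe sets of 1 gene were averaged, and 860 probe sets shared by several genes were left out. Symbols came from RefSeq for 19191 genes. The 4 groups were fitted to all 11 arrays with limma 3.58.1 (lmFit, eBayes) in R 4.3.3, with Benjamini-Hochberg adjustment over all genes and a call at an adjusted p under 0.05. The procedure was tested on simulated data. Replicates are separate biological samples by their labels. A p-value sets a difference against the spread between replicates, estimated for each gene over all 4 groups together and moderated over all genes. For WT IMP, with 2 arrays, it thus rests also on the spread in the other groups. The members and lists were chosen with earlier results of these data known. Named are the members, the other chain genes, Cd4, Cd3e and Cd44, up to 4 called genes a list and comparison with the greatest difference (not all are printed), and the most alike genes; others were chosen after their values were seen, and some genes are not reported here. Python 3.11.15, numpy 2.4.6, pandas 2.3.3 and matplotlib 3.10.9 were used.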

Additional observations from a re-analysis of the deposited data

Results flagged for a closer look

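H2-Ab1 is singled out because the test of the difference between differences was passed: the difference of IMP from naive was 3.22 ± 0.43 larger on the log2 scale in the chimeras than in the unmanipulated mice (adjusted p = 0.0262, limma). H2-Ab1 averaged 3.15 over the WM IMP arrays against -3.07 over the MW naive arrays, and 3.0 over the WT IMP arrays, with WT naive at 0. The same estimate is the WM IMP minus WT IMP difference (0.15 ± 0.32, adjusted p = 0.829, limma) less the MW naive minus WT naive difference (-3.07 ± 0.29). It is therefore not a result separate from the low MW naive values given above. The groups of the chimeras differ in the genotype of marrow and host as well as in cell type, and these cannot be told apart.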

How the results depend on the processing

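Of 912 values of the members under 41 alternatives, 847 kept direction and call, 31 lost a call, 12 gained one and 22 changed sign, 0 of these among the 416 values called. With 1 array left out, the members called numbered 4 to 7 in WT IMP against WT naive, 7 to 7 in WM IMP against MW naive, 3 to 3 in MW naive against WT naive and 0 to 0 in WM IMP against WT IMP. In the test of unequal differences they numbered 0 to 3 (0 without WT naive 2, MW naive 2, WT IMP 1, WT IMP 2 or WM IMP 3, and 3 without MW naive 3 or WM IMP 2). That test called 1, against 0 in the 7 arrays with low poly-A controls, 0 with the Gapdh covariate, 0 at an adjusted p under 0.01 and 0 where all probe sets had to be called, 2 with the median of probe sets, 2 with the gene table, 2 where any probe set sufficed, and 3 with array weights and 3 with the poly-A class as a block. In the 7 arrays, where WT IMP has 1 array that is assumed to vary like the others, 4 members were called in WT IMP against WT naive and 1 in MW naive against WT naive, and the Gapdh covariate also left 1 there. The cause was not tested. Over all genes the test of unequal differences called 12, against 4 with the Gapdh covariate and 6 at an adjusted p under 0.01. It called 12 with the median of probe sets, 25 with the gene table and 57 with array weights. With the poly-A class as a block it called 18. With the Gapdh covariate 14 of all genes were called in MW naive against WT naive, against 567 without it. The share of all genes called thus changed with the setting too. Sign changes were all among uncalled values. H2-Ob in WT IMP against WT naive was 0.02 with the replicate block, 0.05 with the Gapdh covariate, 0.02 on probe set 1422201_at alone and -0.13 to 0.11 with 1 array left out. In MW naive against WT naive H2-Ob was 0.02 in the 7 arrays, 0.04 with the Gapdh covariate, 0.01 with the gene table, 0.07 on 1422201_at and -0.15 to 0.06 with 1 array left out. H2-Oa was there 0.08, 0.01 (gene table) and -0.29 to 0.10, and H2-Eb2 0.16 in the 7 arrays and -0.42 to 0.17. On 1422201_at alone H2-Ob was -0.14 in WM IMP against MW naive, -0.10 in WM IMP against WT IMP and -0.16 in the test of unequal differences. H2-DMa was in that test 0.14 with the Gapdh covariate, 0.00 with array weights and -0.64 to 0.06 with 1 array left out. In WM IMP against WT IMP H2-DMa was -0.12 to 0.59 with 1 array left out, and H2-Ab1 -0.03 with the median of probe sets. Of 15 same-numbered pairs of arrays, 2 had deviations correlated over 0.1 (r from -0.28 to 0.19). Deviations within a group of 2 or 3 arrays sum to 0, so these correlations depend on each other. They cannot settle whether the replicate numbers pair the samples. With the replicate block, Cd74 in WT IMP against WT naive (2.05, adjusted p = 0.0572) and H2-Ab1 in the test of unequal differences (3.20, adjusted p = 0.0923) were not called, leaving 6 and 0 members.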
